A study of Mus musculus with 2 samples.

Results

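This account follows 30 genes of fatty acid oxidation and of the peroxisome proliferator-activated receptors (PPARs), out of 31053 features counted in single cells from liver tumour tissue of mice. They are a set list of genes, found in the tables by their symbols. They comprise 18 mitochondrial genes, 3 peroxisomal genes, 6 genes known as PPAR targets and the 3 PPAR receptor genes themselves. At least 1 unique molecular identifier (UMI, the tag that marks 1 captured mRNA molecule) was counted for 30 of the 30 genes in the FABP5 inhibitor library and for 29 in the control library.

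The FABP5 inhibitor library came from C57BL/6 mice, 17 months old, on CD-HFD for 15 months and given an inhibitor of fatty acid binding protein 5 (FABP5) from month 13. The control library came from mice of the same strain, age and diet whose treatment is labelled control. In both, the hepatocellular carcinoma (HCC) region was resected, broken up with collagenase and enriched for live cells with an Annexin V kit, after which droplet 3′ single-cell RNA sequencing was run. There was 1 library per group, and the number of mice behind each, what the control mice received and the sequenced Annexin V fraction are not given in the sources used here. Every difference below is therefore a difference between these 2 libraries, with no replicate check, no test and no p-value.

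Cells burn fatty acids mainly in mitochondria. Long chains enter as carnitine esters and are then shortened in a repeated spiral of dehydrogenation, hydration, a further oxidation and thiolytic cleavage, and the electrons reach the respiratory chain through the electron transfer flavoprotein. Peroxisomes shorten very long and branched chains by a parallel route. PPARα, encoded by Ppara, is a nuclear receptor activated by fatty acids that in rodent liver switches on genes of both routes, while PPARγ (Pparg) is best known in fat cells and macrophages and PPARδ (Ppard) in many tissues. FABP5 is a carrier of fatty acids inside cells that has been reported to bring ligands to PPARδ.

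PPARs bind DNA with retinoid X receptors at direct repeats of the core motif AGGTCA spaced by 1 base, so the promoter sequences of members with contrasting values are shown here with that motif in capitals. The windows run from 250 bases before to 50 bases after the gene's start, 5′ to 3′ on the gene's own strand, from RefSeq on GRCm38.p6, where 24 of the 30 members were matched. The core motif, searched on both strands, occurred in a window of 4 of those 24 members (Acadm, Acadvl, Cpt1a and Pparg) and in 16.2% of 32544 mouse promoter windows of 300 bases. The exact repeat AGGTCANAGGTCA occurred in 13 of all the promoters and in 0 of the members' windows. Such a match is a description of letters, not a binding site. Acaa1b, with the highest ratio among members that had at least 20 UMIs in the control hepatocyte-like cells, lies on the minus strand (window chr9:119157044-119157343), and Acaa1a, its near copy whose start in GENCODE M21 is 182583 bases away, lies on the plus strand (window chr9:119341044-119341343). Neither window held the motif.
Acaa1b: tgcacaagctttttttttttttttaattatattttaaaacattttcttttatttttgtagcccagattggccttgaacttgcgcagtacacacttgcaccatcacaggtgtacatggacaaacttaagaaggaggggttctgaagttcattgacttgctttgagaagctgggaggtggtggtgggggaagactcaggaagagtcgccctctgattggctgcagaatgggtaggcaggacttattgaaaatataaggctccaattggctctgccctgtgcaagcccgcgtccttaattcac
Acaa1a: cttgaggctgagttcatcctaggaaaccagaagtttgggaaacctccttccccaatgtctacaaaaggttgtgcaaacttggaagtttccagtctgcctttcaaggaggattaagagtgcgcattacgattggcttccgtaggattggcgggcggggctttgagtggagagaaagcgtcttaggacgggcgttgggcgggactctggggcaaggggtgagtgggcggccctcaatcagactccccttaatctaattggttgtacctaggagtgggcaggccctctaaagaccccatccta
Hadhb is printed because its annotated start lies 86 bases from that of Hadha on the opposite strand, so that this plus-strand window (chr5:30155003-30155302) overlaps the window of Hadha, the gene of the other subunit of the trifunctional protein.
Hadhb: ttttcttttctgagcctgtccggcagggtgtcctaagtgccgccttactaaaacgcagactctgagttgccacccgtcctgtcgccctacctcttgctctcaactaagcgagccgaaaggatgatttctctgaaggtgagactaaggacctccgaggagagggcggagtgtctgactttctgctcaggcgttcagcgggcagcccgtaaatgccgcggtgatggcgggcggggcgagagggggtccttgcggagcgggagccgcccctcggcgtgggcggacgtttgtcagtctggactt
Cpt1a (chr19:3323051-3323350, plus strand) held the motif, read on the minus strand, and its gene was close to equal between the libraries in hepatocyte-like cells. Acadvl (chr11:70015379-70015678, minus strand) held it on the plus strand of the gene and was higher with the inhibitor there.
Cpt1a: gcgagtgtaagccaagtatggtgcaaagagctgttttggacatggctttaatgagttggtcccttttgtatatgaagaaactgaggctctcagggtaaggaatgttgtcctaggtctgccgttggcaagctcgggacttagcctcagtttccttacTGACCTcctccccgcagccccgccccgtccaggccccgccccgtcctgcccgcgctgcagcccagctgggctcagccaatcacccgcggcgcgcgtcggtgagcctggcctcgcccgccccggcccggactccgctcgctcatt
Acadvl: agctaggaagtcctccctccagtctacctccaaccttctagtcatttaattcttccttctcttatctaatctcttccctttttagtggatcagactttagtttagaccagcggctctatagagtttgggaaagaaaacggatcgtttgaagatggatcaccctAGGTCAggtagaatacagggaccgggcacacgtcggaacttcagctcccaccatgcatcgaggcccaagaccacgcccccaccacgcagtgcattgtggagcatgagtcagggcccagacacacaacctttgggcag

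The deposited tables held 10649 barcodes and 68074929 UMIs for the inhibitor library and 9493 barcodes and 53378693 UMIs for the control library, and 8753 and 6461 cells were kept. They fell into 34 clusters, of which all but 2 took 1 of 15 names from markers, written "-like". Of these classes, 7 had 100 cells or more on both sides and were compared. The libraries shared 29 deposited barcode sequences, 18 of them among kept cells, which were treated as separate cells. Levels are UMIs per 1000000 UMIs of a class (CPM), a gene is called measured in a class with at least 20 UMIs over both libraries, and it is counted as higher or lower at 1.5-fold or more. Intervals are 95% intervals of counting error only.

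Hepatocyte-like cells are the class in which the members differed most often between the libraries. Of the 28 members measured there, 25 were higher in inhibitor cells and 1 was lower, against 28.4% of all 7950 measured genes higher and 26.1% lower. The median log2 ratio of inhibitor over control was 1.59 over those members and 0.08 over all genes. The class held 147 inhibitor and 234 control cells, and these lay mostly in different clusters. The inhibitor cells lay almost entirely in cluster 23, with 142 cells, and the control cells in cluster 22, with 150, and cluster 27, with 82. Acaa1b is 1 of the 10 leading genes of cluster 23. Only Acaa1b and Acot2 of the members were among the 2000 variable genes used for clustering, and clustering without the members gave the same median of the mitochondrial members, 1.48, and the same Acaa1b ratio, 3.98.

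**Figure D1:**
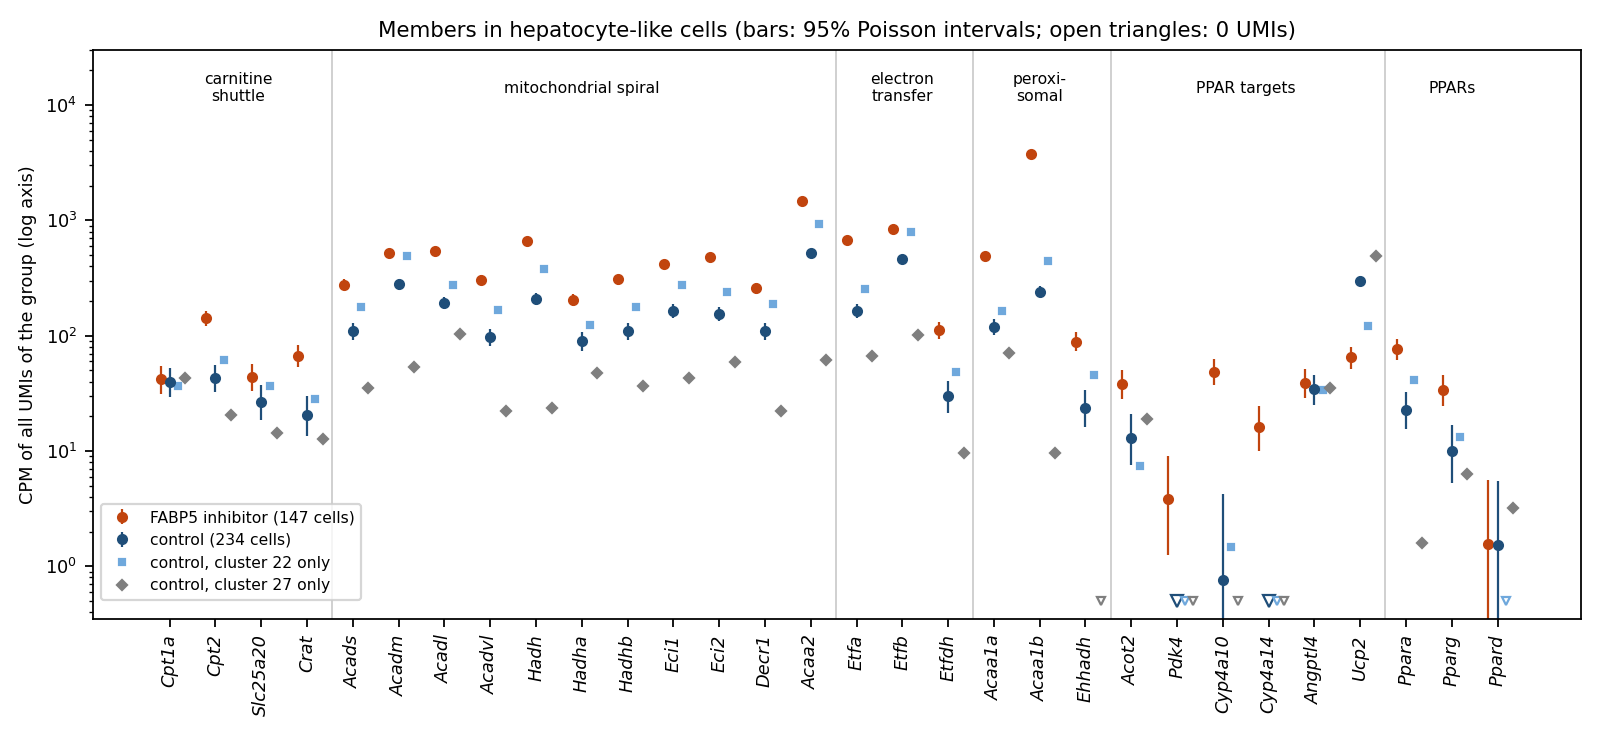
CPM of the 30 members (log axis) in hepatocyte-like cells of the FABP5 inhibitor library and the control library, with 95% Poisson intervals, and in control clusters 22 and 27 taken alone. Inhibitor points lie above control points for 25 members by at least 1.5-fold, Cpt1a and Angptl4 lie close together, and Ucp2 is lower in inhibitor cells.

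The plot of member levels in hepatocyte-like cells shows the mitochondrial genes as a block. Of the 18, 17 were at least 1.5-fold higher in inhibitor cells and 0 were lower, and their median log2 ratio was 1.48. In the carnitine shuttle, which carries acyl chains across the mitochondrial membranes, 3 of 4 genes were higher. Cpt1a, the liver form of the outer-membrane enzyme that commits fatty acids to entry, had 54 UMIs (41.7 CPM) in inhibitor cells and 52 UMIs (39.7 CPM) in control cells, a log2 ratio of 0.07 with an interval of −0.50 to 0.65. The entry enzyme thus differed by less than its counting error. Cpt2, the inner-membrane partner that releases the chains again, had 183 UMIs (141 CPM) in inhibitor cells and 56 UMIs (42.8 CPM) in control cells, a log2 ratio of 1.73. Slc25a20, the translocase between them, had 44.0 CPM in inhibitor cells and 26.7 CPM in control cells, and Crat, which handles acetyl groups on carnitine, had 67.2 and 20.6 CPM in inhibitor and control cells.

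All 11 genes of the mitochondrial spiral were higher in inhibitor cells, with log2 ratios between 0.91 and 1.65. Against control cluster 22 alone 9 of the 11 were higher by 1.5-fold, where 37.4% of all measured genes were higher and 14.3% lower. Acadm and Decr1 were the ones that were not, at 0.14 and 0.48. The median of the 11 was 0.77 there, beside 0.31 over all genes. The 4 acyl-CoA dehydrogenases that open the spiral for chains of different length had ratios of 1.35 for Acads (short chains), 0.91 for Acadm (medium), 1.48 for Acadl (long) and 1.65 for Acadvl (very long). Acadm, with the smallest of these, had 677 UMIs (523 CPM) in inhibitor cells and 365 UMIs (279 CPM) in control cells. Acadvl had 393 UMIs (304 CPM) in inhibitor cells and 127 UMIs (97.0 CPM) in control cells. Hadh, the hydroxyacyl-CoA dehydrogenase for shorter chains, had 851 UMIs (658 CPM) in inhibitor cells and 274 UMIs (209 CPM) in control cells, a log2 ratio of 1.65 with an interval of 1.45 to 1.85. The subunits of the trifunctional protein, which carries out the later steps on long chains, were both higher. Hadha had 206 CPM in inhibitor cells and 89.3 CPM in control cells, and Hadhb had 308 CPM in inhibitor cells and 110 CPM in control cells, with log2 ratios of 1.20 and 1.48.

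The auxiliary enzymes that deal with double bonds were higher as well. Eci1, an enoyl-CoA isomerase, had 420 CPM in inhibitor cells and 163 CPM in control cells. Eci2, an isomerase found in mitochondria and peroxisomes, had 623 UMIs (481 CPM) in inhibitor cells and 203 UMIs (155 CPM) in control cells, a log2 ratio of 1.64. Decr1, the 2,4-dienoyl-CoA reductase, had 259 CPM in inhibitor cells and 109 CPM in control cells. Acaa2, the mitochondrial thiolase that closes the spiral, had 1920 UMIs (1484 CPM) in inhibitor cells and 677 UMIs (517 CPM) in control cells, and its log2 ratio was 1.52 with an interval of 1.39 to 1.65. The closing enzyme thus had a ratio inside the range of the 4 dehydrogenases that open the spiral in the class as a whole. That also held against control cluster 22 alone, at 0.72 within 0.14 to 1.02. It did not hold against control cluster 27 alone, at 4.62 above a range of 2.43 to 3.81.

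The 3 genes that pass electrons from the dehydrogenases onward were all higher, with a median log2 ratio of 1.91. Etfa, the α subunit of the electron transfer flavoprotein, had 868 UMIs (671 CPM) in inhibitor cells and 216 UMIs (165 CPM) in control cells, a log2 ratio of 2.02 with an interval of 1.81 to 2.25. Etfb, its β subunit, had 1101 UMIs (851 CPM) in inhibitor cells and 607 UMIs (463 CPM) in control cells, a log2 ratio of 0.88 whose interval of 0.73 to 1.02 did not reach that of Etfa. The subunits of 1 complex therefore differed in their ratios by more than counting error in the class as a whole. Against control cluster 22 alone their intervals were also apart, at 1.43 for Etfa and 0.12 for Etfb. Against control cluster 27 alone the intervals overlapped, at 3.36 for Etfa and 3.09 for Etfb, so the gap depended on the control cells. Etfdh, which hands the electrons to ubiquinone, had 145 UMIs (112 CPM) in inhibitor cells and 39 UMIs (29.8 CPM) in control cells, a log2 ratio of 1.91.

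The peroxisomal members had a higher median log2 ratio, 2.05, and all 3 were higher in inhibitor cells. Acaa1b, a peroxisomal thiolase, had 4906 UMIs (3791 CPM) in inhibitor cells and 315 UMIs (240.5 CPM) in control cells, 15.8-fold higher, with a log2 ratio of 3.98 and an interval of 3.81 to 4.15. Its near copy Acaa1a had 639 UMIs (494 CPM) in inhibitor cells and 156 UMIs (119 CPM) in control cells, a log2 ratio of 2.05. The transcripts are alike near their 3′ ends, where these libraries count: of the 50-base words in the last 500 bases of Acaa1a, 42.1% also occur in Acaa1b, so the split of counts between this pair is uncertain. Ehhadh, the peroxisomal bifunctional enzyme, had 115 UMIs (88.9 CPM) in inhibitor cells and 31 UMIs (23.7 CPM) in control cells, a log2 ratio of 1.91.

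Among the 6 PPAR targets 3 were higher, 1 was lower, 1 differed by less than 1.5-fold and 1 was not measured. Cyp4a10, a microsomal ω-hydroxylase of fatty acids and a classic PPARα target in rodent liver, had 63 UMIs (48.7 CPM) in inhibitor cells and 1 UMI (0.763 CPM) in control cells, a log2 ratio of 5.99 with an interval of 3.46 to 11.32. Of the 50-base words in the last 500 bases of Cyp4a10, 5.99% also occur in Cyp4a31, and of those of Cyp4a32, 55.7% also occur in Cyp4a10, so the split of counts among these copies is uncertain. Cyp4a14, of the same family, had 21 UMIs (16.2 CPM) in inhibitor cells and 0 in control cells. With the 0 set to a floor of 3 UMIs it was 7.08-fold higher, a value that rests on that floor. Acot2, a mitochondrial acyl-CoA thioesterase, had 49 UMIs (37.9 CPM) in inhibitor cells and 17 UMIs (13.0 CPM) in control cells, a log2 ratio of 1.54. Angptl4, a secreted inhibitor of lipoprotein lipase, had 50 UMIs (38.6 CPM) in inhibitor cells and 45 UMIs (34.4 CPM) in control cells, a log2 ratio of 0.17 whose interval spanned 0. Pdk4, the kinase that turns pyruvate dehydrogenase off when fat is burned, had 5 UMIs in inhibitor cells and 0 in control cells.

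Ucp2, a mitochondrial carrier protein whose gene is strongly expressed by macrophages, ran the other way. It had 84 UMIs (64.9 CPM) in inhibitor cells and 394 UMIs (301 CPM) in control cells, a log2 ratio of −2.21 with an interval of −2.57 to −1.87. Of the control UMIs 311 lay in cluster 27, whose cells also had Cd74, a gene of antigen-presenting cells, at 13984 CPM and Ptprc, the pan-leukocyte gene, at 365 CPM. In cluster 23 of the inhibitor library Cd74 stood at 322 CPM and Ptprc at 38.2 CPM, and in control cluster 22 at 808 and 25.1 CPM. The part of leukocyte RNA in the Ucp2 difference was not tested, and against cluster 22 alone the log2 ratio was −1.18. It was −3.19 against cluster 27 alone and −6.08 with free RNA subtracted. The genes that guided that subtraction code for proteins that hepatocytes secrete, so in this class it also took the cells' own RNA. It removed 34.518% of inhibitor and 24.015% of control UMIs of the class, and nothing is read from the −6.08. With no doublets removed the log2 ratio of Ucp2 was 0.03 and with no limit on mitochondrial UMIs 0.84, so its sign depended on these cell filters.

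The receptor genes Ppara and Pparg were higher in inhibitor hepatocyte-like cells. Ppara had 99 UMIs (76.5 CPM) in inhibitor cells and 30 UMIs (22.9 CPM) in control cells, a log2 ratio of 1.74 with an interval of 1.14 to 2.38. Pparg had 44 UMIs (34.0 CPM) in inhibitor cells and 13 UMIs (9.92 CPM) in control cells, a log2 ratio of 1.78 with an interval of 0.86 to 2.79. Ppard had 2 UMIs in each library and no ratio is given.

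Because the libraries occupied different hepatocyte-like clusters, inhibitor cluster 23 was also set against each control cluster on its own, a comparison added after the data had been seen. Against cluster 22, 13 of the 18 mitochondrial members were at least 1.5-fold higher and 0 lower, where 37.4% of all measured genes were higher and 14.3% lower, and the median log2 ratio was 0.79, beside 0.31 over all genes. The 5 that did not reach 1.5-fold were Cpt1a at 0.14, Slc25a20 at 0.30, Acadm at 0.14, Etfb at 0.12 and Decr1 at 0.48. The peroxisomal genes kept a log2 ratio of 3.14 for Acaa1b, 1.64 for Acaa1a and 1.00 for Ehhadh. Cyp4a10 had 63 UMIs in cluster 23 and 1 in cluster 22, and Ppara and Pparg had log2 ratios of 0.92 and 1.33. Against cluster 27, 17 of 18 mitochondrial members were higher and 0 lower, where 37.3% of all genes were higher and 32% lower, and the median was 3.09, beside 0.09 over all genes. The Acaa1b ratio was 8.68 there, from 4904 UMIs in cluster 23 and 6 in cluster 27, and that of Cpt1a was −0.08. Cpt1a was thus under 1.5-fold against each control cluster.

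Hepatocyte-like barcodes above the limit on mitochondrial UMIs, 37 in the inhibitor library and 627 in the control library, had 18 of 18 mitochondrial members higher, but there 75.4% of all measured genes were higher and 10.4% lower. Cpt1a was not close to equal in these barcodes. Its log2 ratio per UMIs other than those of mitochondrial DNA was 2.42, with an interval of 1.88 to 2.96, beside a median of 1.43 over all genes.

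The hepatocyte-like clusters also differed in zonal genes. In inhibitor hepatocyte-like cells 10 genes of hepatocytes near the central vein summed to 26742 CPM, against 328 CPM in control cells, and each of the 10 was higher with the inhibitor. The periportal list of 10 genes summed to 3058 CPM in inhibitor cells and 3514 CPM in control cells, with 7 genes lower and 1 higher, and Cyp2f2, Hal, Sds and Gls2 were at 0 UMIs in cluster 23. Glul, the glutamine synthetase gene of pericentral cells, stood at 7241 CPM in cluster 23, against 39.8 CPM in control cluster 22 and 41.3 CPM in control cluster 27. Alb, the albumin gene, stood at 4589.9 CPM in cluster 23, 26313 CPM in cluster 22 and 4329 CPM in cluster 27. The median share of mitochondrial UMIs per cell was 0.924% in inhibitor and 7.55% in control hepatocyte-like cells. There 8 neutrophil markers summed to 1249 CPM in inhibitor and 985 CPM in control cells, with 3 of 5 measured higher and 1 lower. S100a8, 1 of these markers, stood at 81.1 CPM in cluster 23, 95.8 CPM in cluster 22 and 100 CPM in cluster 27. Another, G0s2, is also on the list of further PPAR targets below, so this sum is no clean measure of neutrophil RNA. The part of zonation, of mitochondrial RNA content and of other cells' RNA in the member differences was not tested, and with 1 library per group treatment, tissue sampled and library cannot be told apart.

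Other genes of the same routes are given for context in these cells, where 28.4% of all measured genes were higher and 26.1% lower. Of 14 further genes of peroxisomal oxidation 13 were measured, 9 were higher in inhibitor cells and 1 was lower, and their median log2 ratio was 1.43. Hsd17b4, the bifunctional enzyme for branched chains, had a log2 ratio of 2.67, and Pex11a, a factor of peroxisome division, 3.09. The exception was Acox3 at −1.98, from 6 UMIs in inhibitor cells and 24 in control cells. Among 16 further genes of fatty acid activation and mitochondrial oxidation 8 were measured, 7 were higher and 0 lower, with a median of 0.83 and Acsl1, a long-chain acyl-CoA synthetase, at 2.41. Against control cluster 22 alone 3 of those 8 were higher and their median was 0.34, close to the 37.4% and 0.31 of all genes there. The peroxisomal list had 8 of 11 measured genes higher and 0 lower against cluster 22, and a median of 1.09.

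Of 23 further PPAR targets and genes of ketone body synthesis 17 were measured, 14 were higher and 2 lower, and the median was 1.74. Acot1, a cytosolic acyl-CoA thioesterase, had a log2 ratio of 4.44, Fabp1, the liver fatty acid carrier, 2.92, and Fgf21, a hepatic hormone of fasting, 2.17. The lower pair were Fabp4, the carrier of fat cells and macrophages, at −3.94 and Hilpda, a lipid droplet protein, at −0.79. Against control cluster 22 alone 12 of 15 measured genes of this list were higher and 0 lower, with a median of 1.26. Of all measured genes 37.4% were higher and 14.3% lower against that cluster. Of 13 receptor partners and co-regulators 9 were measured, 3 were higher and 1 was lower, with a median of −0.26, where 28.4% of all genes were higher. That sign turned with the control cluster: the median was 0.86 against cluster 22, with 4 of 6 higher and 1 lower. It was −0.26 against cluster 27, with 2 of 9 higher and 4 lower, where 37.3% of all genes were higher and 32% lower. Rxra, the retinoid X receptor that pairs with PPARs, had a log2 ratio of 0.70, and Sirt3, a mitochondrial deacetylase, 1.35.

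**Figure D2:**
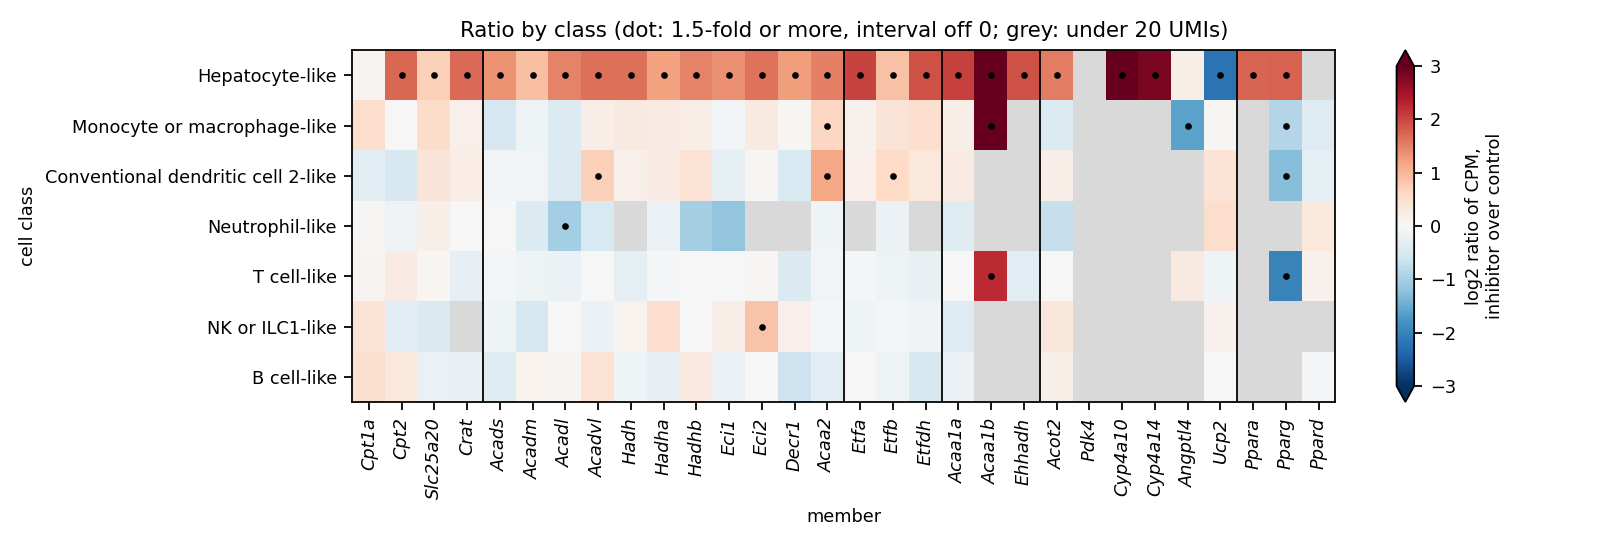
Log2 ratio of CPM, inhibitor over control, of the 30 members (columns, in role order) in the 7 classes compared (rows); a dot marks 1.5-fold or more with a counting interval off 0, and grey marks under 20 UMIs. The hepatocyte-like row is red for 25 members with a dot, and Pparg is blue in the monocyte or macrophage-like, conventional dendritic cell 2-like and T cell-like rows.

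The heat map of ratios by class shows few members past 1.5-fold in the leukocyte classes. In monocyte or macrophage-like cells, with 4168 inhibitor and 1197 control cells, 1 of 18 mitochondrial members was at least 1.5-fold higher and 0 were lower, where 13.3% of all measured genes were higher and 20.6% lower. The median log2 ratio was 0.21 over those members and 0.00 over all genes. In T cell-like cells 0 of 18 reached 1.5-fold, where 4.08% of all genes were higher and 10.3% lower, with a median of −0.06. In B cell-like cells 0 were higher and 1 was lower, where 6.28% of all genes were higher and 9.40% lower. In NK or ILC1-like cells 1 of 17 measured was higher and 0 were lower, where 7.60% of all genes were higher and 10.7% lower. The exception was Eci2, with 50 UMIs (47.2 CPM) in inhibitor cells and 24 UMIs (26.2 CPM) in control cells. In the same class 8 neutrophil markers summed to 371 CPM in inhibitor and 63.4 CPM in control cells, with 2 of 4 measured higher and 1 lower. The 13 T cell markers summed to 1187 CPM in inhibitor and 985 CPM in control cells, with 7 of 10 measured higher and 0 lower, and the part of other cells in the Eci2 value was not tested. The difference between classes in these ratios was not tested.

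Neutrophil-like cells had 3 of 13 measured mitochondrial members lower and 0 higher, where 24.9% of all genes were lower and 5.23% higher, so the members' share was close to that of all genes. All 13 mitochondrial DNA transcripts were lower as well, and summed to 18548 CPM in inhibitor and 44812 CPM in control neutrophil-like cells. Of the inhibitor cells 535 were in cluster 2 and 21 in cluster 14, and of the control cells 577 were in cluster 2 and 238 in cluster 14. The part of mitochondrial RNA and of cluster in the member values was not tested. Acadl, the long-chain dehydrogenase, had 40 UMIs (42.2 CPM) in inhibitor neutrophil-like cells and 143 UMIs (85.6 CPM) in control ones, a log2 ratio of −1.02 with an interval of −1.56 to −0.51. Acadl thus had opposite signs in hepatocyte-like and neutrophil-like cells. Conventional dendritic cell 2-like cells had 3 of 18 higher and 0 lower, where 11.6% of all genes were higher and 10.3% lower. Those were Acaa2, with 88.6 CPM in inhibitor and 39.4 CPM in control cells, Acadvl, with 31.6 and 19.2 CPM in inhibitor and control cells, and Etfb, with 150.0 and 99.4 CPM in inhibitor and control cells. The log2 ratio of Acaa2 was at least 1.06 under each setting tried, but that of Acadvl was 0.41 with no doublets removed and that of Etfb 0.49 with more removed, both under 1.5-fold. Markers of other cells moved with this class: 8 neutrophil markers summed to 188 CPM in inhibitor and 34.7 CPM in control cells, with 3 of 4 measured higher, and 13 T cell markers to 115 CPM in inhibitor and 69.4 CPM in control cells, with 6 of 8 higher and 1 lower. Their part in the member values was not tested.

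In monocyte or macrophage-like cells the named members were few. Acaa2 had 3467 UMIs (104 CPM) in inhibitor cells and 683 UMIs (67.9 CPM) in control cells, a log2 ratio of 0.62, which became −0.08 when free RNA was subtracted and 0.78 when the free RNA guide left out Hp, Trf and Apoc1. The guide that gave −0.08 was carried largely by Hp in inhibitor cells of this class, at 1324 CPM there and 397 CPM in control cells, while the 16 genes left without Hp, Trf and Apoc1 summed to 51.7 CPM in inhibitor and 793 CPM in control cells. The subtracted share of inhibitor UMIs was 2.78% with the full guide and 0.166% without those genes. Angptl4 had 38 UMIs (1.14 CPM) in inhibitor cells and 35 UMIs (3.48 CPM) in control cells, a log2 ratio of −1.60. Ucp2, with 967 CPM in inhibitor cells and 942 CPM in control cells, was nearly equal, at a log2 ratio of 0.04. Cpt1a had 54.6 CPM in inhibitor and 37.7 CPM in control cells, a log2 ratio of 0.53, under 1.5-fold.

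Pparg was lower with the inhibitor in 3 leukocyte classes. It had 428 UMIs (12.9 CPM) in inhibitor and 240 UMIs (23.9 CPM) in control monocyte or macrophage-like cells, a log2 ratio of −0.89 with an interval of −1.12 to −0.65. In conventional dendritic cell 2-like cells it had 10 UMIs in the inhibitor library and 23 in the control library, a log2 ratio of −1.28, and in T cell-like cells 5 and 18 UMIs in the inhibitor and control libraries, a log2 ratio of −2.01. These last values rest on few molecules, and with more doublets removed the dendritic cell value was 0.29. The direction in these classes was opposite to that in hepatocyte-like cells, a difference that was not tested.

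**Figure D3:**
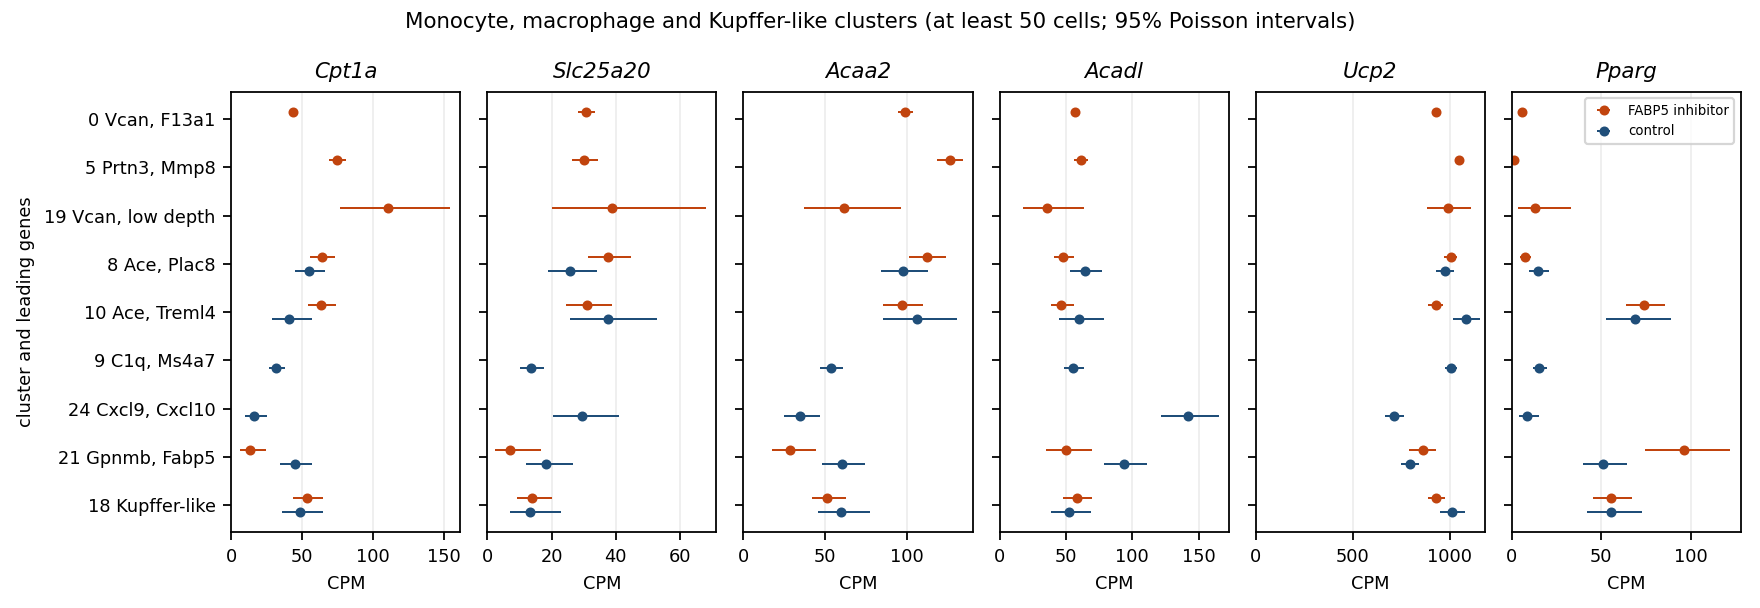
CPM of Cpt1a, Slc25a20, Acaa2, Acadl, Ucp2 and Pparg in 9 monocyte, macrophage and Kupffer-like clusters with at least 50 cells in a library, for the FABP5 inhibitor and control libraries, with 95% Poisson intervals. Clusters 0, 5 and 19 are shown for the inhibitor library and 9 and 24 for the control library alone, and Pparg in cluster 21 is higher with the inhibitor, at 96.0 CPM against 51.2 CPM in control cells.

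The plot of monocyte and macrophage clusters shows that the libraries held different clusters of this class. Most inhibitor cells were in cluster 0, a Vcan and F13a1 cluster of 2117 inhibitor cells, and cluster 5, with 957, while most control cells were in cluster 9, a C1q cluster of 487 control cells, cluster 8, with 235, cluster 10, with 129, cluster 21, with 126, and cluster 24, a Cxcl9 cluster of 115. Pparg was at 5.98 CPM in inhibitor cluster 0 and 1.15 CPM in inhibitor cluster 5, against 15.4 CPM in control cluster 9 and 8.41 CPM in control cluster 24. Within clusters that both libraries held, its log2 ratio was −0.98 in cluster 8, 0.10 in cluster 10, and 0.91 in cluster 21. In cluster 18, the Kupffer-like cells, it stood at 55.6 CPM in inhibitor and 55.7 CPM in control cells. The class value of Pparg therefore did not hold in each cluster.

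Cluster 21, led by Gpnmb and Fabp5 itself, had a median log2 ratio of the mitochondrial members of −0.45, opposite in sign to the class. It held 51 inhibitor and 126 control cells, and 7 of 17 measured mitochondrial members were lower and 0 higher there, where 16.1% of all genes were lower and 17.8% higher. Cpt1a had 9 UMIs (12.9 CPM) in inhibitor cells and 64 UMIs (44.9 CPM) in control cells, a log2 ratio of −1.80 with an interval of −2.99 to −0.78. Acadl had 35 UMIs (50.2 CPM) in inhibitor cells and 134 UMIs (94.0 CPM) in control cells, and Acaa2 had 20 UMIs (28.7 CPM) in inhibitor cells and 86 UMIs (60.3 CPM) in control cells. Acads and Hadh were lower by log2 ratios of −0.97 and −1.25. Pparg was higher, with 67 UMIs (96.0 CPM) in inhibitor cells and 73 UMIs (51.2 CPM) in control cells. Pparg and the 7 lower oxidation genes thus had opposite signs in this cluster, while the other 10 measured mitochondrial members were not past the threshold.

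Kupffer-like cells, the resident macrophages of the liver, made up cluster 18, with 126 inhibitor and 91 control cells. There 5 of 18 mitochondrial members were lower and 0 higher, where 19.5% of all genes were lower and 12.3% higher, and the median log2 ratio was −0.14. That share lies closer to the background than the share in cluster 21 does. Eci2 had 48 UMIs (24.7 CPM) in inhibitor cells and 53 UMIs (54.6 CPM) in control cells, a log2 ratio of −1.14. Cpt2 had a log2 ratio of −1.36, Acadm −0.68, Acads −0.64 and the target Acot2 −0.81. In the nonclassical monocyte cluster 10, led by Ace and Treml4, Cpt1a had 63.3 CPM in inhibitor cells and 41.0 CPM in control cells, a log2 ratio of 0.63. In cluster 20, conventional dendritic cell 1-like cells, Slc25a20 had 108 UMIs (110.1 CPM) in inhibitor cells and 84 UMIs (51.9 CPM) in control cells, a log2 ratio of 1.08.

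A few further members stood out in single clusters, each from small counts. Cpt2 had 20 UMIs in inhibitor and 7 in control cells of T cell-like cluster 3, a log2 ratio of 1.49. Eci2 had 31 UMIs in inhibitor and 14 in control cells of NK or ILC1-like cluster 15, a log2 ratio of 1.61. Slc25a20 had 16 UMIs in inhibitor and 6 in control cells of the proliferating-like cluster 25, a log2 ratio of 1.72. Acadl had 34 UMIs in inhibitor and 72 in control cells of neutrophil-like cluster 2, a log2 ratio of −0.71.

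**Figure D4:**
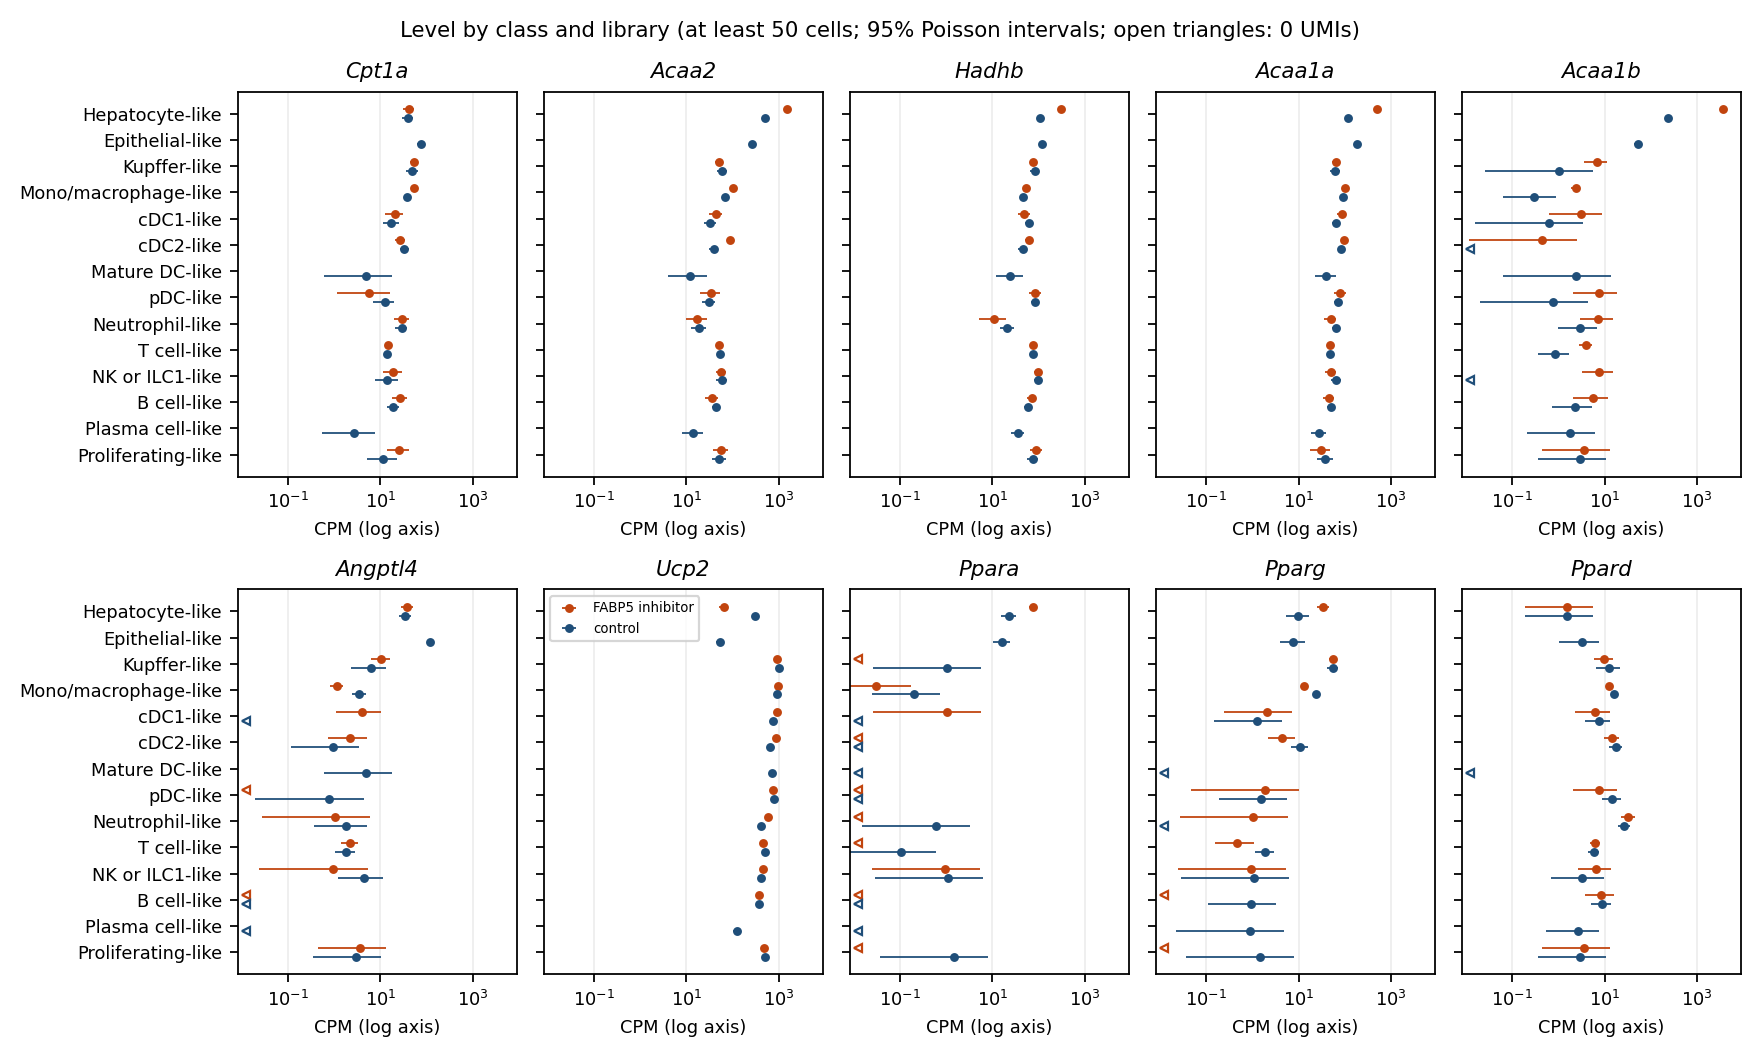
CPM (log axis) of 10 members in 14 classes with at least 50 cells in a library, for the FABP5 inhibitor library and the control library, with 95% Poisson intervals and open triangles for 0 UMIs. Acaa1b, Acaa2 and Ppara are highest in hepatocyte-like cells of both libraries, Ucp2 is lowest in hepatocyte-like cells of the inhibitor library and epithelial-like cells of the control library, and Ppard is highest in neutrophil-like cells.

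Levels by class, seen in the plot of 10 members over 14 classes, put most of the mitochondrial members highest in hepatocyte-like cells of the inhibitor library. In the inhibitor library the exceptions among the mitochondrial members were Cpt1a, with 54.6 CPM in monocyte or macrophage-like, 53.6 CPM in Kupffer-like and 41.7 CPM in hepatocyte-like cells, and Slc25a20, with 110.1 CPM in conventional dendritic cell 1-like cells and 44.0 CPM in hepatocyte-like cells. The intervals of Cpt1a in monocyte or macrophage-like and Kupffer-like cells overlapped. In the control library a cluster of 63 epithelial-like cells, which had no counterpart in the inhibitor library, had Cpt1a at 74.6 CPM, Acadl at 215 CPM, Eci2 at 246 CPM and Acaa1a at 185 CPM, each the highest of that library. The interval of Cpt1a overlapped that of Kupffer-like cells, at 48.4 CPM. The interval of Acadl overlapped those of conventional dendritic cell 1-like cells, at 206 CPM, and hepatocyte-like cells, at 193 CPM. Hadha, Hadhb and Etfdh were also highest in epithelial-like control cells, at 94.6, 118 and 36.0 CPM, with intervals that overlapped those of hepatocyte-like cells. Crat was highest in Kupffer-like control cells, at 25.8 CPM, with an interval overlapping those of epithelial-like and hepatocyte-like cells. Slc25a20 was highest in neutrophil-like control cells, at 52.1 CPM, with an interval overlapping that of conventional dendritic cell 1-like cells, at 51.9 CPM.

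The receptors had different homes. Ppara was highest in hepatocyte-like cells, with 76.5 CPM in the inhibitor library and 22.9 CPM in the control library, followed in the control library by epithelial-like cells at 16.1 CPM with an overlapping interval. No leukocyte class of at least 50 cells had more than 1 UMI of Ppara in the inhibitor library. Among whole classes Pparg was highest in Kupffer-like cells, followed by hepatocyte-like cells of the inhibitor library and monocyte or macrophage-like cells of the control library. Single monocyte or macrophage-like clusters reached higher, with 96.0 CPM in inhibitor cells of cluster 21 and, in cluster 10, 74.1 CPM in inhibitor and 69.1 CPM in control cells. Ppard was highest in neutrophil-like cells, with 32.7 CPM in the inhibitor library and 26.3 CPM in the control library, whose intervals overlapped. Ucp2 was highest in the inhibitor library among monocyte or macrophage-like cells, at 967 CPM, and in the control library among Kupffer-like cells, at 1013 CPM.

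Summed over all kept cells, few mitochondrial members differed, and in such sums fewer cells of a type and less RNA per cell cannot be told apart. Of the 18 mitochondrial members 2 were higher and 0 lower, where 8.87% of all genes were higher and 27.9% lower, with a median log2 ratio of 0.17 over the members and −0.15 over all genes. The higher pair were Cpt1a at 0.64 and Acaa2 at 0.60. Acaa1b had 5071 UMIs in the inhibitor library and 427 in the control library, a log2 ratio of 2.94, and 96.7% of the inhibitor UMIs and 73.8% of the control UMIs lay in hepatocyte-like cells. Its near copy Acaa1a was spread more widely, with 12.1% of inhibitor and 5.93% of control UMIs in hepatocyte-like cells and 65.2% and 35.1% of inhibitor and control UMIs in monocyte or macrophage-like cells.

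Cyp4a10 had 66 UMIs in the inhibitor library and 2 in the control library, and Cyp4a14 had 23 in the inhibitor library and 0 in the control library. Angptl4 and Pdk4 were lower over all kept cells. Angptl4 had 145 UMIs in the inhibitor library and 305 in the control library, a log2 ratio of −1.70, and 60.3% of the control UMIs came from the epithelial-like cells that the inhibitor library lacked. Pdk4 had 9 UMIs in the inhibitor library and 15 in the control library, and 15 of those 15 were in the same epithelial-like cells. Its log2 ratio of −1.37 was 0.82 with no mitochondrial limit.

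**Figure D5:**
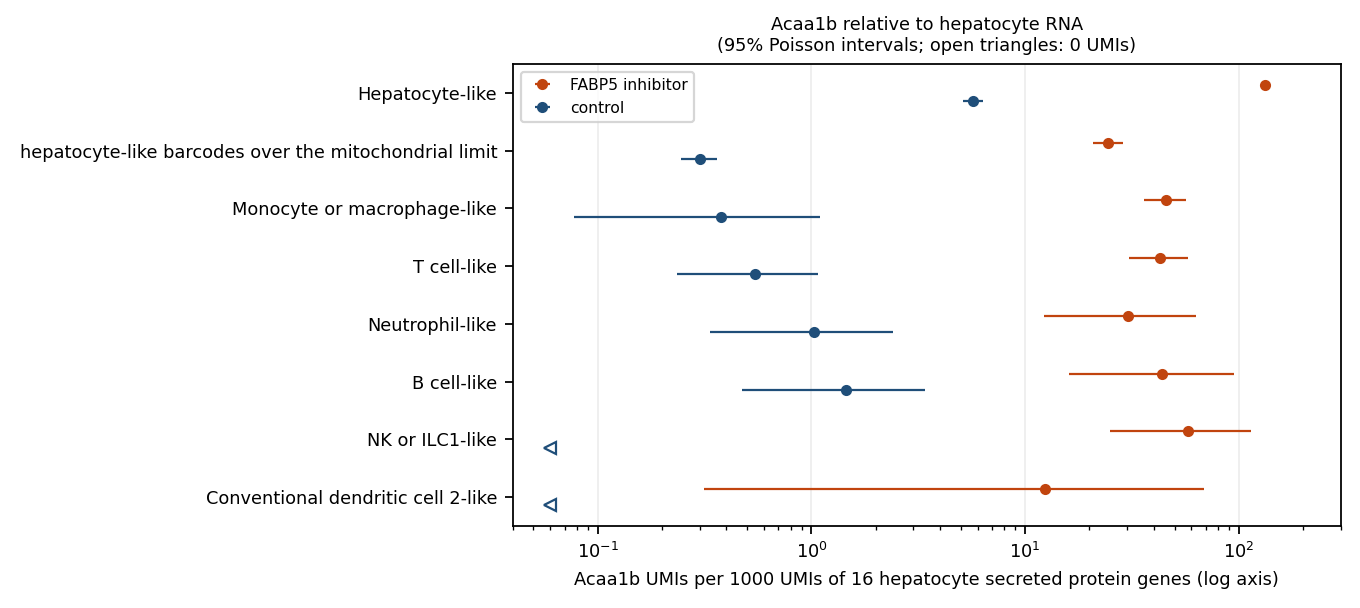
Acaa1b UMIs per 1000 UMIs of 16 genes for proteins secreted by hepatocytes (log axis), by class, for the FABP5 inhibitor library and the control library, with 95% Poisson intervals and open triangles for 0 UMIs. Hepatocyte-like cells had 132 in the inhibitor library and 5.71 in the control library, and the inhibitor point is the higher in each class shown. In conventional dendritic cell 2-like cells that point rests on 1 UMI, against 0 in control cells, and the intervals overlap.

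Acaa1b was also counted in leukocyte-like classes. Monocyte or macrophage-like cells had 78 UMIs (2.35 CPM) in the inhibitor library and 3 UMIs (0.298 CPM) in the control library, and T cell-like cells had 42 UMIs (3.95 CPM) and 8 UMIs (0.843 CPM) in the inhibitor and control libraries. Droplets carry free RNA from broken cells, so these counts were set against 16 genes for proteins that hepatocytes secrete, in the plot of Acaa1b relative to hepatocyte RNA. Per 1000 UMIs of those genes there were, in the inhibitor library, 45.4 Acaa1b UMIs in monocyte or macrophage-like, 42.7 in T cell-like, 43.5 in B cell-like, 30.4 in neutrophil-like and 58.0 in NK or ILC1-like cells. The counting intervals of these 5 values overlapped one another, and all lay below the 132 of hepatocyte-like cells. In the control library the same ratio was 0.376 in monocyte or macrophage-like and 0.544 in T cell-like cells, and 5.71 in hepatocyte-like cells. The share of the 16 genes themselves was 51.7 CPM in inhibitor and 793 CPM in control monocyte or macrophage-like cells. With free RNA subtracted, Acaa1b was at the floor of 3 UMIs in both libraries, in monocyte or macrophage-like and in T cell-like cells. The resulting log2 ratios, −1.72 and −0.20 where they had been 2.98 and 2.23, therefore hold only that floor and the class totals. No expression in leukocytes is read from these counts.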

How the data were processed

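Whole-number UMI counts per gene and barcode, not normalized, were deposited for 1 library per group. Per the file headers, Cell Ranger 5.0.1 made the tables. The submitters' processing notes name Cell Ranger, R 3.0, Seurat 3 and the build mm9, while the feature identifiers match GENCODE M21 on GRCm38, so positions are given on GRCm38.

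Barcodes with at least 300 genes, at least 500 UMIs and at most 25% mitochondrial UMIs were kept. Doublets were scored against 2 simulated doublets per cell, and 0.8% per 1000 barcodes, 717 in the inhibitor and 374 in the control library, were removed. Median UMIs per deposited barcode were 5971 in the inhibitor and 4157 in the control library. Both libraries were clustered together (2000 variable genes, 30 principal components, 20 neighbours, Leiden resolution 1). A cluster was named from at least 3 markers of a class that were at least 2-fold higher there than elsewhere. UMIs were summed per library and class. CPM have exact Poisson intervals, and log2 ratios of inhibitor over control have exact conditional binomial intervals. A library at 0 was set to 3 UMIs. Computation used python 3.11.15, numpy 2.4.6, scipy 1.17.1, pandas 2.3.3, scikit-learn 1.9.0, python-igraph 0.11.9, leidenalg 0.10.2 and matplotlib 3.10.9. The ratios were tested on simulated counts that held counting error only, with no spread between cells, mice or libraries.

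The members and lists were chosen with earlier results of these data known. All 30 members are accounted for. The values of 2 further pathway genes, which are no members, are not reported singly here. Within a class, members at least 1.5-fold apart with an interval off 0 are described with their values, up to the 10 farthest from no difference, and other members of the hepatocyte-like class were added by role. Cell filters, doublet removal, cluster resolution, scaling, free RNA and the minimum of UMIs were varied.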

Additional observations from a re-analysis of the deposited data

Results flagged for a closer look

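Acadl ran in opposite directions in 2 classes, with a log2 ratio of inhibitor over control of 1.48 in hepatocyte-like cells and −1.02 in neutrophil-like cells. Pparg did so too, with 1.78 in hepatocyte-like cells, −0.89 in monocyte or macrophage-like cells, −1.28 in conventional dendritic cell 2-like cells and −2.01 in T cell-like cells. Each of these values has a counting interval off 0, there is 1 library per group, and the differences between classes were not tested.

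Barcodes over the limit of 25% mitochondrial UMIs were left out of the comparisons, and hepatocyte-like ones among them carried the members as well. There were 37 such barcodes in the inhibitor library and 627 in the control library, and levels here are per 1000000 UMIs other than those of mitochondrial DNA. The median log2 ratio of the mitochondrial members was 2.12, with 18 of 18 higher, where 75.4% of all 5986 measured genes were higher and their median was 1.43. Acaa1b had 154 UMIs (597 CPM) in the inhibitor library and 108 UMIs (92.3 CPM) in the control library, a log2 ratio of 2.69. Cyp4a10 had 46 UMIs (178 CPM) in the inhibitor library and 10 UMIs (8.54 CPM) in the control library, a log2 ratio of 4.38. The high share of all genes counts beside these values, and the members' share was not tested against it.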

How the results depend on the processing

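The median log2 ratio of the mitochondrial members was recomputed for 7 classes and all kept cells under other cell filters, scalings and cluster choices. In hepatocyte-like cells it stayed positive, at 2.49 with no mitochondrial limit, 1.16 with no doublets removed and, in the 2 comparisons added after the data had been seen, 0.79 against control cluster 22 and 3.09 against control cluster 27. In monocyte or macrophage-like cells it was −0.29 with free RNA subtracted by a guide carried largely by Hp there, and 0.26 with the guide without Hp, Trf and Apoc1. Over all kept cells it was 0.37 with no mitochondrial limit and 0.32 when centred on the median of all genes. Of all recomputed medians, 88 moved by less than their intervals and 7 moved further.

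Of the recomputed ratios of described members 264 moved by less than their intervals, 61 moved further with the same sign and 10 changed sign. Acaa1b was −1.72 in monocyte or macrophage-like and −0.20 in T cell-like cells with free RNA subtracted, and −1.75 and −0.21 with the guide without Hp, Trf and Apoc1, which was added after seeing the data. In these Acaa1b values both libraries stood at the floor of 3 UMIs, so they hold no measured change of sign. Acaa2 was −0.077 in monocyte or macrophage-like cells with free RNA subtracted. Pdk4 over all kept cells was 0.82 with no mitochondrial limit and 0.22 with at least 600 genes per cell. Pparg in conventional dendritic cell 2-like cells was 0.29 with more doublets removed. Ucp2 in hepatocyte-like cells was 0.84 with no mitochondrial limit and 0.028 with no doublets removed. The causes were not tested. Across all settings Acaa1b in hepatocyte-like cells ranged from 3.14 to 8.68. No paired analysis was possible because there is 1 library per group. Depth limits Pdk4, Ppard and Cyp4a14, whose counts in hepatocyte-like cells are few, and with 1 library per group counting intervals leave out the spread between mice.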
